A study of Sus scrofa with 6 samples.

Results

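Genes of the proteasome were compared between the lungs of fetal and neonatal piglets. They were taken from the deposited mRNA table as every gene whose pig Ensembl symbol begins with PSMA, PSMB, PSMC, PSMD, PSME, PSMF or PSMG, with PSMB8 and PSMB9 left out, and 25 of the 14579 mRNAs in the table met this rule. The reference table of symbols holds 44 such genes, and the other 19 matched no identifier and were not analysed here, among them the catalytic subunits PSMB5, PSMB6 and PSMB10 and the inhibitor PSMF1. Of the core, 3 of 8 alpha and 2 of 9 beta subunits listed were measured. The 25 genes comprise 5 subunits of the core particle, 13 subunits of the regulatory cap, 4 activators and 2 assembly chaperones. PSMC3IP is the remaining gene, and it is not a proteasome subunit although the rule takes it by name.

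All 6 piglets were female hybrids of a Tibetan sire and a Meishan dam, each from a different sow. The fetal group was 3 piglets taken on the last day of gestation, and the neonatal group was 3 piglets taken 2 days after birth. The sows were kept under the same conditions until caesarean section or birth, and the labels name no treatment. Each library was total RNA of a whole lung sample depleted of ribosomal RNA. Since each sow gave 1 stage, litter, mode of delivery and stage cannot be told apart, and in whole tissue neither can fewer cells of a type and less RNA per cell.

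The proteasome is the chamber in which cells cut up proteins that carry ubiquitin. Its core particle is a stack of rings, with outer rings of alpha subunits (PSMA genes) that form the gate and inner rings of beta subunits (PSMB genes) that hold the cutting sites. The cap sits on the gate. Its base holds a ring of ATPases (PSMC genes) that unfold the protein, and its lid (PSMD genes) removes the ubiquitin chain. Activators of the PSME family can dock on the core in place of the cap. In the lung, as elsewhere, the composition of the complex is known to respond to interferon.

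Values are FPKM, fragments corrected for the length of the transcript and the size of the library, so that levels of different genes can be compared. The log2(FC) is the neonatal mean minus the fetal mean of log2(FPKM + 1), fitted in limma over all mRNAs, with the threshold set at an adjusted p of 0.05. Summed FPKM over all mRNAs ranged from 339491 to 471220 in the fetal samples and from 491548 to 777982 in the neonatal samples. Median FPKM moved less, from 4.99 to 5.42 in the fetal and from 5.56 to 6.11 in the neonatal samples. The mRNAs with a symbol held 38.8% to 45.1% of summed FPKM before birth and 33.8% to 39.2% after it. Over all mRNAs the log2(FC) had a median of 0.13. Of 12 lung marker genes, 8 were measured and none was called. Of 6 erythroid markers, 3 were measured and none was called in limma as deposited. HBB, a hemoglobin chain, was called lower after birth under quantile normalization (log2(FC) -1.38, limma adjusted p = 0.0260). It was also called with equal summed FPKM (log2(FC) -1.35, adjusted p = 0.0276), but not under median-of-ratios scaling (log2(FC) -0.94, adjusted p = 0.193). The study, which used Cuffdiff, reported HBB as significantly higher in fetal lungs. SFTPC, a surfactant protein of alveolar type II cells, had 3171 to 3902 FPKM in the fetal and 4233 to 8790 FPKM in the neonatal samples. SCGB1A1, a marker of airway secretory cells, had 99.8 to 138.5 FPKM before birth, 62.2 FPKM in Neonatal1, 62.0 FPKM in Neonatal3 and 0.213 FPKM in Neonatal2.

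Of the 25 genes, 22 had a higher mean log2 level in the neonatal group (21 of 24 without PSMC3IP), where 59.9% of all mRNAs did. With equal summed FPKM in each sample, 9 of the 25 had, where 27.3% of all mRNAs did. PSMC3IP alone was past the threshold, and it is in the table only through its neonatal values. None of the 24 genes that encode subunits, activators or chaperones passed in limma, and 10 of the 24 had an unadjusted p under 0.05, against 24.2% of all mRNAs. With the threshold of adjusted p, 6.87% of all mRNAs were called. The lowest adjusted p among the 24 genes was 0.115, for PSMC2. Among all mRNAs called, the smallest absolute log2(FC) was 0.69 and 79.8% exceeded 1, which PSMA5 and PSMC3IP alone did among the 25 genes. The median standard error over the 25 genes was 0.24, and missing the threshold does not show that levels did not differ. The groups did not overlap for 11 of the 25 genes, as for 30.5% of all mRNAs. The neonatal values were the upper ones for 10 of these, beside 20.9% of all mRNAs, and the lower ones for 1, PSME4, beside 9.64%. The 10 include PSMC3IP, and without it 9 of 24 genes had the neonatal values above.

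**Figure D1:**
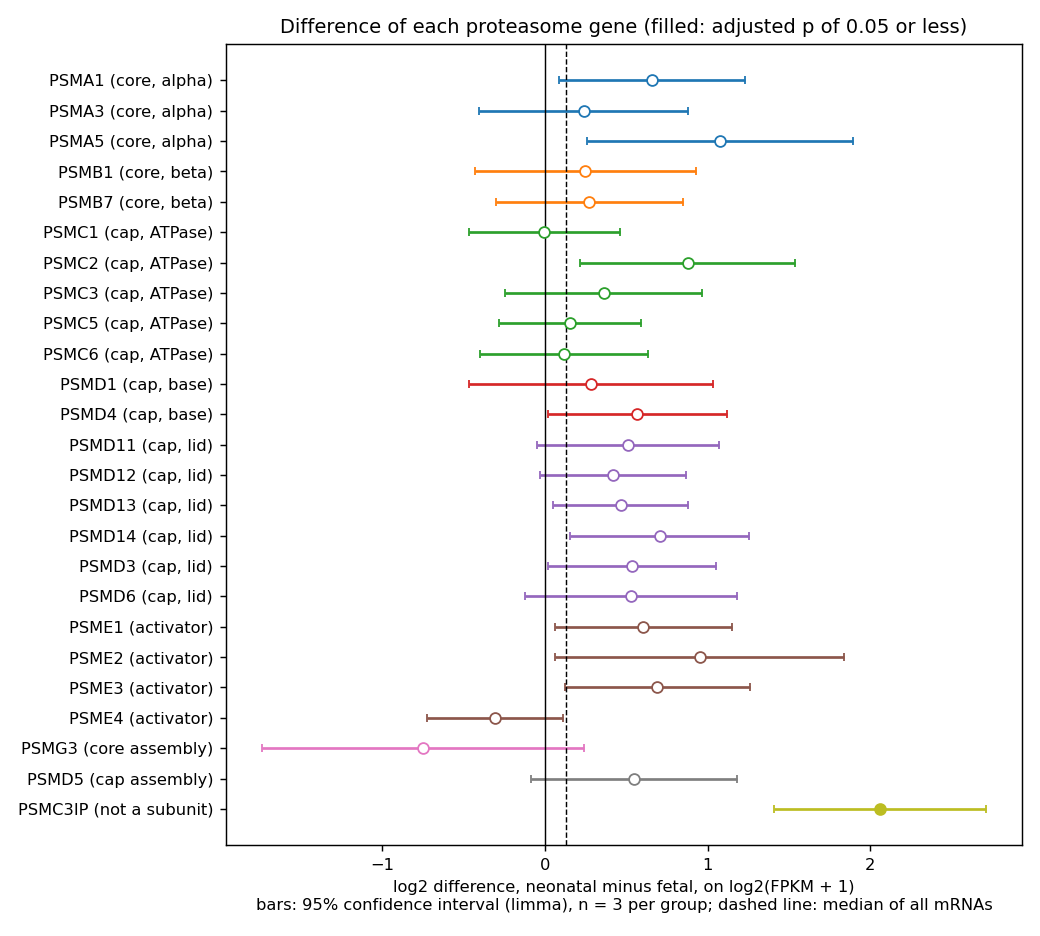
Each point is the log2(FC) of 1 gene, neonatal minus fetal on log2(FPKM + 1), with its 95% confidence interval from limma (n = 3 per group), coloured by the role of the gene. PSMC3IP, with an interval from 1.41 to 2.71, is the point farthest to the right, and PSMC1, PSME4 and PSMG3 are the points below 0. With equal summed FPKM in each sample, 16 of the 25 would lie below 0, and 27.3% of all mRNAs would lie above it.

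The genes covered a wide range of levels. PSMB7 was the most abundant, with 99.3 ± 9.57 FPKM before birth and 122 ± 31.4 FPKM after it (SD, n = 3 each), followed by PSMB1. Among the subunits of the cap, PSMD4 stood at 40.2 ± 7.82 FPKM and PSMD1 at 4.31 ± 1.45 FPKM in the fetal group (SD, n = 3 each). The order of the 24 genes in single samples followed their mean level, with Spearman coefficients between 0.904 in Fetal3 and 0.990 in Fetal1, which run across genes and include the sample itself in the mean. Summed over the 25 genes, the fetal samples held 622, 497 and 563 FPKM, given here and below in the order of replicates 1 to 3, and the neonatal samples 599.9, 767 and 969 FPKM. Neonatal1 thus lay within the fetal range. As a share of the summed FPKM of all mRNAs, they made up 0.146%, 0.146% and 0.1195% before birth and 0.122%, 0.127% and 0.125% after it, so that the groups overlapped here too.

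**Figure D2:**
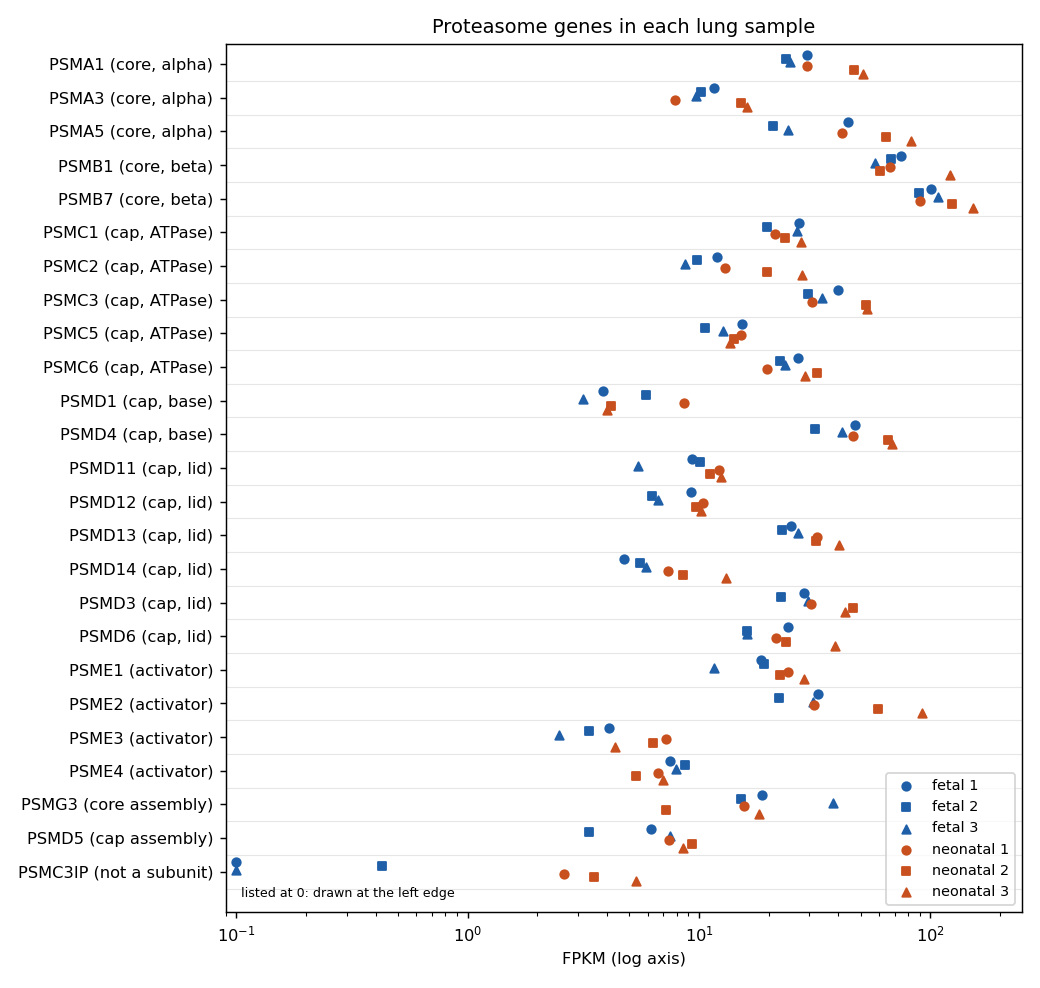
FPKM of the 25 genes on a log axis in the 3 fetal (blue) and 3 neonatal (orange) samples, with marker shape by replicate number. PSMB7 and PSMB1 lie at the right, and the fetal values of PSMC3IP, of which 2 are listed at 0, lie far to the left of its neonatal values.

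In the core particle, all 5 measured subunits had a positive log2(FC), or 2 of 5 with equal summed FPKM (27.3% of all mRNAs). None passed the threshold, and the median as deposited was 0.27. The median rests on single libraries: it was 0.54 without Neonatal1 and 0.095 without Neonatal3. The alpha subunits covered the whole range of the core. PSMA5 had fetal values of 43.9, 20.8 and 24.2 FPKM and neonatal values of 41.6, 64.0 and 82.4 FPKM. Only Fetal1 overlapped with the neonatal samples, just above Neonatal1. Its neonatal mean was 2.11 times the fetal mean, and its log2(FC), 1.08 ± 0.35 (standard error; adjusted p = 0.116), was the highest among the subunits. PSMA1 had 29.3, 23.8 and 24.7 FPKM before birth and 29.3, 46.8 and 51.3 FPKM after it, and its log2(FC) was 0.66 ± 0.24 (standard error; limma adjusted p = 0.158). Fetal1 and Neonatal1 were nearly equal for this gene, and without Neonatal1, its lowest neonatal sample, the limma adjusted p was 0.0434. With any other single sample left out, the adjusted p of PSMA1 lay between 0.222 and 0.357. PSMA3 had the lowest log2(FC) of the alpha subunits at 0.24 (standard error 0.27, adjusted p = 0.633). Its values were 11.6, 10.18 and 9.72 FPKM before and 7.90, 15.2 and 16.1 FPKM after birth, with Neonatal1 below all fetal samples.

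Both measured beta subunits overlapped between the groups. PSMB7, which carries the cutting site for basic residues, had 101, 88.9 and 108 FPKM before birth, and 90.3, 124 and 153 FPKM after it. The log2(FC) was 0.27, with a 95% confidence interval from -0.30 to 0.85 (adjusted p = 0.533). PSMB1, a beta subunit without a cutting site, had 75.01, 67.4 and 57.8 FPKM against 66.8, 60.8 and 121 FPKM. Its neonatal mean rests on Neonatal3: the log2(FC) was 0.25 (interval from -0.43 to 0.93, adjusted p = 0.637) with all samples and -0.058 without Neonatal3.

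In the cap, 12 of 13 subunits had a positive log2(FC), or 2 of 13 with equal summed FPKM (27.3% of all mRNAs). The median as deposited was 0.46. With values as deposited, the lid and the ATPase ring differed in how many of their genes separated the groups. In the lid, 5 of 6 subunits had all neonatal values above all fetal values, and in the ATPase ring 1 of 5 did, beside 20.9% of all mRNAs. Median log2(FC) values were 0.52 for the lid and 0.16 for the ATPases, beside 0.13 for all mRNAs. Separation was counted as deposited only, where every neonatal sample had a larger summed FPKM than every fetal one. With equal summed FPKM, 1 of 6 lid subunits and 1 of 5 ATPases had a positive log2(FC), beside 27.3% of all mRNAs. These are descriptions of the genes at hand, and the difference between lid and ring was not tested.

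PSMC2 stood out among the ATPases. Its fetal samples had 12.0, 9.75 and 8.66 FPKM, and its neonatal samples had 13.0, 19.6 and 27.9 FPKM. The groups did not overlap, with Fetal1 and Neonatal1 close to each other. The neonatal mean was 1.99 times the fetal mean, and the log2(FC) was 0.88 ± 0.28 (standard error; limma adjusted p = 0.115). Without Neonatal1, the neonatal sample nearest to the fetal ones, the adjusted p was 0.0498. With any other single sample left out, the limma adjusted p of PSMC2 lay between 0.18 and 0.29. PSMC1, another ATPase of the same ring, had nearly the same mean in both groups, at 24.4 ± 4.09 and 24.2 ± 3.16 FPKM (SD, n = 3 each). Its samples ran from 19.7 to 27.1 FPKM before birth and from 21.4 to 27.6 FPKM after it, and its log2(FC) was -0.0057 with a 95% confidence interval from -0.47 to 0.46 (adjusted p = 0.988). PSMC3, PSMC5 and PSMC6 lay between these with log2(FC) values of 0.36, 0.16 and 0.12, and each of them overlapped between the groups. PSMC5 and PSMC6 turned negative under median-of-ratios scaling, and all 3 did with equal summed FPKM. PSMC5 was nearly even across the neonatal samples, at 15.1, 14.2 and 13.6 FPKM.

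Among the lid subunits, PSMD14 had the highest log2(FC). It encodes the metalloprotease that cuts the ubiquitin chain from a bound protein. Fetal levels of 4.72, 5.55 and 5.88 FPKM stood against neonatal levels of 7.34, 8.52 and 13.0 FPKM, all of them higher, and the log2(FC) was 0.70 ± 0.24 (standard error; limma adjusted p = 0.125). PSMD12 had the lowest of the lid, 0.42 (standard error 0.19, adjusted p = 0.236), with 9.27, 6.28 and 6.66 FPKM against 10.4, 9.74 and 10.17 FPKM. The neonatal samples of PSMD12 agreed closely, with an SD of 0.330 FPKM, and those of PSMD11, at 12.1, 11.2 and 12.4 FPKM, did so as well. The structural lid subunits PSMD13 and PSMD3 did not overlap either. PSMD13 went from 24.9 ± 1.95 to 34.8 ± 4.63 FPKM and PSMD3 from 26.9 ± 3.78 to 39.8 ± 8.37 FPKM (SD, n = 3 each). PSMD6 was the lid subunit whose groups overlapped, since Fetal1, at 24.3 FPKM, lay above Neonatal1 and Neonatal2, at 21.4 and 23.8 FPKM.

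In the base of the cap, PSMD4 and PSMD1 were measured beside the ATPases. PSMD4, a receptor that binds ubiquitin chains, had 47.1, 31.7 and 41.7 FPKM before and 46.5, 65.3 and 68.4 FPKM after birth. Its log2(FC) was 0.57 ± 0.24 (standard error; limma adjusted p = 0.195), and Fetal1 lay above Neonatal1. PSMD1, a large scaffold subunit, had fetal values of 3.85, 5.93 and 3.14 FPKM. Among the neonatal samples, Neonatal1 was highest at 8.62 FPKM, and Neonatal2 and Neonatal3, at 4.18 and 4.01 FPKM, lay inside the fetal range. The log2(FC) of PSMD1 was 0.28 (adjusted p = 0.628), and it was -0.025 without Neonatal1.

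Among core, cap and activators, the activators had the highest median log2(FC), 0.65 over 4 genes, and 1 of them lay in the opposite direction. PSME1 and PSME2 encode the partner subunits of an activator ring that is induced by interferon gamma and helps to make peptides for antigen presentation. PSME1 had 18.5, 19.1 and 11.6 FPKM against 24.2, 22.4 and 28.5 FPKM, without overlap, and its log2(FC) was 0.61 ± 0.23 (standard error; limma adjusted p = 0.168). PSME2 was at 32.8, 22.2 and 31.0 FPKM against 31.3, 59.3 and 92.1 FPKM, and its log2(FC) was 0.95 ± 0.38 (standard error; limma adjusted p = 0.183). Neonatal1 stayed within the fetal range of PSME2, whereas Neonatal2 and Neonatal3 lay far above it. Without Neonatal3 the log2(FC) of PSME2 was 0.59. Of 16 interferon-inducible genes listed, 10 were measured, with IRF1 the only one past the threshold. Of the 10, 9 had a positive log2(FC), 7 with equal summed FPKM (27.3% of all mRNAs). Their summed FPKM was 50.1 to 75.2 in the fetal samples and 107, 123 and 368 after birth. Neonatal3, the sample with the highest PSME2, also had the highest sum. TAP1, a defining gene of that list, was listed at 0 in every sample but Neonatal3. Of 17 leukocyte markers listed, 12 were measured, and S100A8 alone passed. Of the 12, 9 had a positive log2(FC), 7 with equal summed FPKM (27.3% of all mRNAs). The summed FPKM of these markers was 149.8 to 373 before birth and 451 to 947 after it. The part of interferon response and of leukocytes in the values of PSME1 and PSME2 was not tested.

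PSME3 and PSME4 encode activators found mainly in the nucleus. PSME3 was low, with 4.07, 3.35 and 2.48 FPKM before and 7.19, 6.35 and 4.35 FPKM after birth. Its groups did not overlap, although Fetal1 and Neonatal3 differed little, and the log2(FC) was 0.69 ± 0.24 (standard error; limma adjusted p = 0.139). PSME4 was the only one of the 25 genes with all neonatal values below all fetal values. Fetal values of 7.49, 8.68 and 7.97 FPKM faced neonatal values of 6.66, 5.35 and 7.02 FPKM, a ratio of means of 0.788 and a log2(FC) of -0.31 (interval from -0.73 to 0.11, adjusted p = 0.335). PSME4 stayed negative under each scaling of the samples, but all 3 scalings lower the median log2(FC) of all mRNAs. That median went from 0.13 to -0.0090, -0.038 and -0.32, so the kept sign is no sign of stability.

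**Figure D3:**
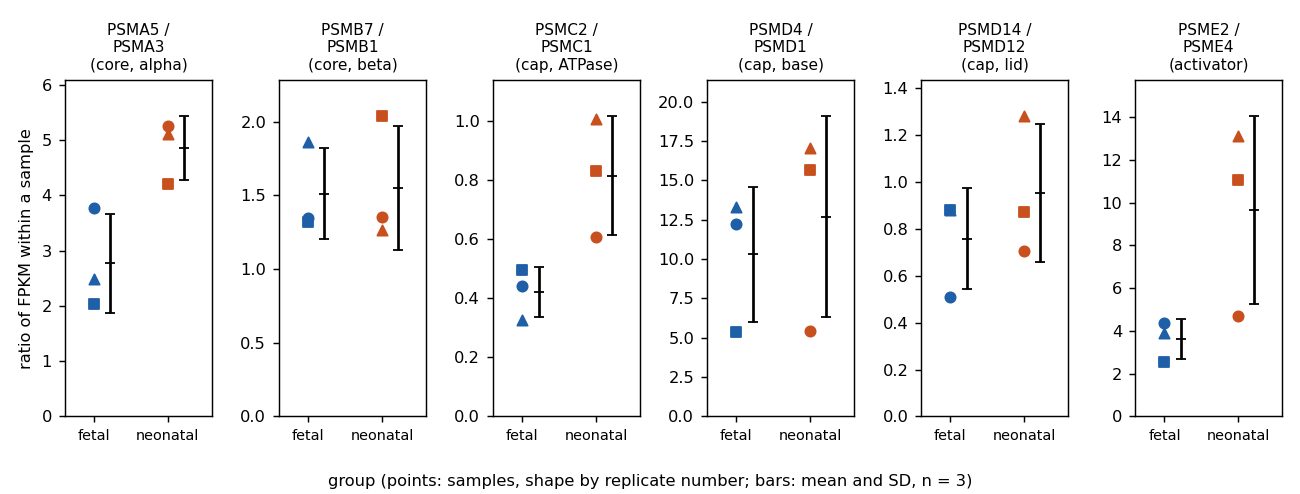
Ratio of FPKM of the gene with the highest to the gene with the lowest log2(FC) of each class, within each sample (points), with mean and SD (bars, n = 3 per group). The ratios of PSMA5 to PSMA3, PSMC2 to PSMC1 and PSME2 to PSME4 do not overlap between the groups, and the others do.

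A ratio of 2 genes within a sample is the same under any scaling that multiplies a sample by 1 factor. For each class with more than 1 gene, the gene with the highest log2(FC) was divided by the one with the lowest. Since these pairs were chosen by the difference itself, the ratios are given without a test. PSMC2 stood at 0.442, 0.495 and 0.327 times PSMC1 in the fetal samples and at 0.608, 0.829 and 1.01 times PSMC1 in the neonatal samples, which places the 2 ATPases of 1 ring near parity in Neonatal3. The ratio of PSMA5 to PSMA3 was 3.78, 2.04 and 2.49 against 5.26, 4.20 and 5.10. That of PSME2 to PSME4 was 4.37, 2.56 and 3.89 against 4.71, 11.1 and 13.1, with Neonatal1 close to Fetal1. Within the activator ring, PSME2 was 1.77, 1.16 and 2.69 times PSME1 in the fetal samples and 1.29, 2.65 and 3.23 times PSME1 in the neonatal samples, and here the groups overlapped.

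Of the assembly chaperones, PSMG3 and PSMD5 were measured. PSMG3 helps to build the alpha ring of the core. It had the lowest log2(FC) of the 25 genes, -0.75, but varied widely within groups, with 18.8, 15.2 and 37.8 FPKM before and 15.6, 7.17 and 18.2 FPKM after birth (standard error 0.42, adjusted p = 0.320). The log2(FC) was -0.38 without Fetal3 and -0.37 without Neonatal2. PSMD5, which holds an intermediate of the cap base, was at 6.19, 3.36 and 7.47 FPKM against 7.45, 9.31 and 8.49 FPKM, and its log2(FC) was 0.55 ± 0.27 (standard error; limma adjusted p = 0.263). Both overlapped between the groups, PSMD5 only through Fetal3 and Neonatal1.

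PSMC3IP was the gene past the threshold. It was listed at 0 in Fetal1 and Fetal3, which can be a failed estimate, and stood at 0.427 FPKM in Fetal2. The neonatal samples had 2.61, 3.51 and 5.35 FPKM, all above the fetal ones. Its fetal values lie under the authors' filter of 0.5 FPKM, so the gene entered the table only through the group in which it is high, and its call is a description of these values. The log2(FC) was 2.06 ± 0.28 (standard error; limma adjusted p = 0.00876), and 5.41% of all mRNAs were called in this direction. Its size is set by the pseudocount, with 2.77 at a pseudocount of 0.5 and 4.43 at 0.1. The gene takes its name from binding the ATPase PSMC3, but it encodes a partner of MND1 in the pairing of homologous chromosomes, a step of recombination. PSMC3 itself had 34.4 ± 5.10 and 45.4 ± 12.8 FPKM (SD, n = 3 each; adjusted p = 0.433). Of 18 genes of cycling cells listed, 11 were measured and all 11 had a positive log2(FC), beside 59.9% of all mRNAs. All 11 were called higher, beside 5.41% of all mRNAs, with a median log2(FC) of 2.465. Their summed FPKM was 18.0 to 23.1 before birth and 155 to 187 after it. BUB1 of this list, at 0.310 to 0.384 FPKM in the fetal samples, also entered the table only through its neonatal values. The part of cycling cells in the values of PSMC3IP was not tested. In the RefSeq table of Sscrofa11.1, another assembly than the one used for mapping, 8 of the 25 genes overlap another gene, PSMC3IP among them. The gene that overlaps it, MLX, had 8.34 to 10.3 FPKM in the neonatal samples and 10.0 to 13.0 FPKM in the fetal samples, and its log2(FC) was -0.25. The others are PSMA3, PSMC1, PSMC5, PSMD1, PSMD6, PSMD14 and PSME1. The gene that overlaps PSMD1, HTR2B, a serotonin receptor, stood at 0.0550 ± 0.0570 FPKM before birth and at 1.23 ± 0.413 FPKM after it (SD, n = 3 each), and it too passed the filter only through its neonatal values. The libraries were strand-specific.

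Equal summed FPKM turned the sign of many of these small differences, and the other scalings that of few. Under median-of-ratios scaling 20 of the 25 genes had a positive log2(FC), beside 49.3% of all mRNAs, and under quantile normalization 18 did, beside 46.8%. When each sample was set to the same summed FPKM, 9 of the 25 remained positive, beside 27.3% of all mRNAs, and the median of the 25 genes went from 0.51 to -0.035. Relative to the median of all mRNAs, the median of the 25 genes was higher by 0.39 as deposited, and by 0.36, 0.29 and 0.28 under these scalings. For the activators this distance was 0.52, 0.50, 0.50 and 0.45, and for the lid 0.39, 0.36, 0.30 and 0.28. For the core it was 0.14, 0.10, 0.066 and 0.0074, and for the ATPases 0.029, -0.00017, 0.0096 and -0.073. PSMC3IP was past the threshold under each of the 3 scalings, with log2(FC) values of 1.96, 2.00 and 1.79. It passed the authors' filter only through its neonatal values, so this is no sign of stability.

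**Figure D4:**
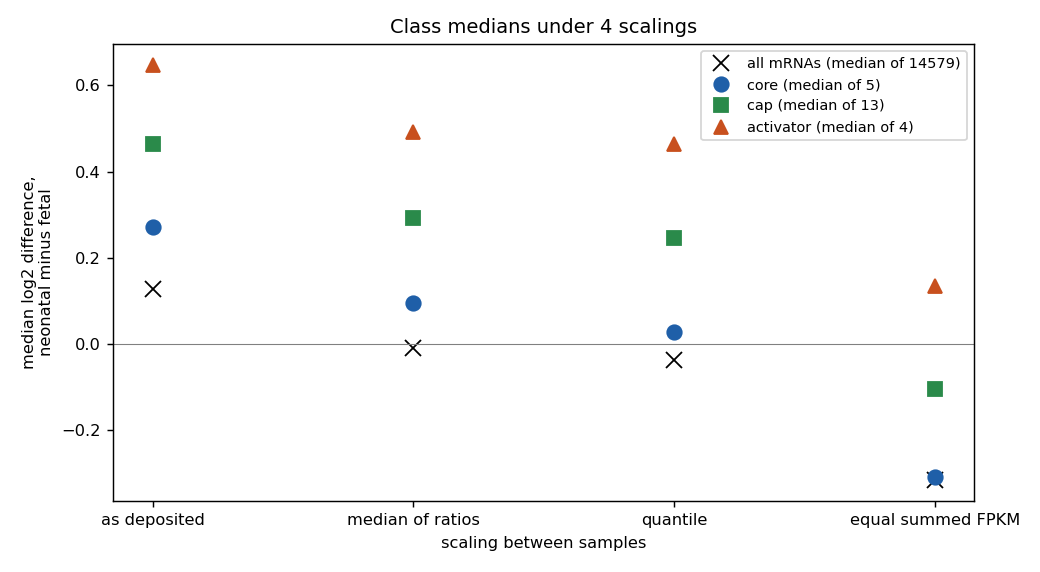
Median log2(FC) of the core, cap and activator genes and of all mRNAs with values as deposited and under 3 scalings between samples. All medians move down together from left to right, and the order of activators, cap and core holds in each scaling, though not without Neonatal1, where the core median is 0.54 and the cap median 0.51, with the core at -0.31 and all mRNAs at -0.32 when summed FPKM is set equal.

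Among the neonatal samples the genes did not follow 1 level. Each log2(FPKM + 1) value was set against the mean of its gene over the fetal samples. The median over the 25 genes was then 0.17, -0.11 and -0.037 before birth and 0.22, 0.46 and 0.63 after it. Over all mRNAs the values for the neonatal samples were 0.051, 0.13 and 0.19. Neonatal3 was the highest neonatal sample for 18 of the 25 genes and Neonatal1 the lowest for 15. Over all 14579 mRNAs, Neonatal3 was the highest for 6382 and Neonatal1 the lowest for 6796, and Neonatal3 had the largest summed FPKM. Among core, cap and activators, the core showed the widest spread, with medians of 0.010, 0.50 and 0.86 in the 3 neonatal samples, so that for this class Neonatal1 lay below Fetal1, at 0.17.

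**Figure D5:**
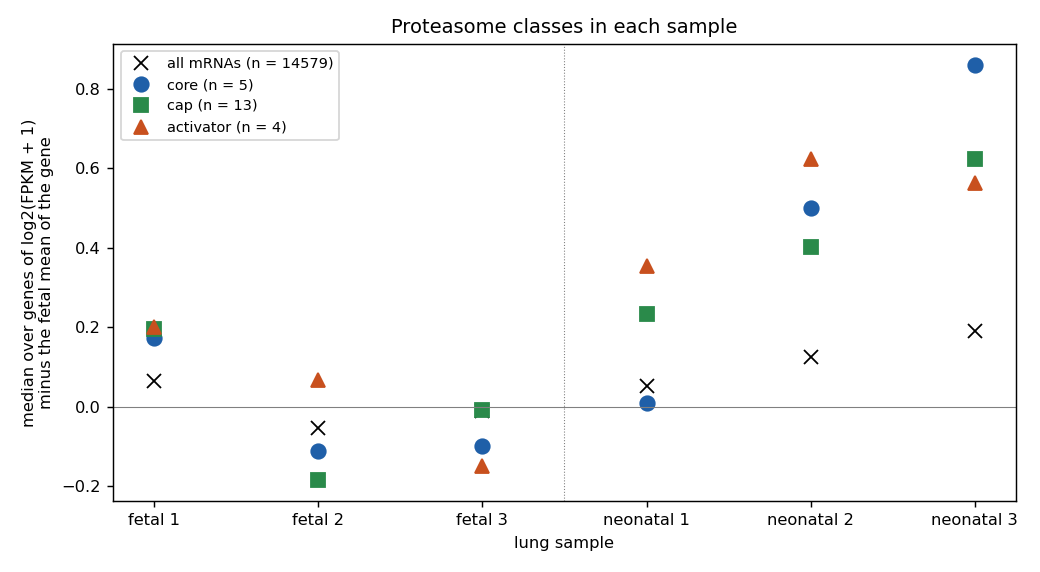
Median over the genes of each class of log2(FPKM + 1) minus the fetal mean of the gene, in each of the 6 samples, beside the same for all mRNAs. The core spans 0.010 to 0.86 over the neonatal samples, and the activators lie at 0.35 or more in all 3.

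Genes that act with the proteasome were taken from 4 lists with 24 measured genes. None passed the threshold in limma as deposited, and 4 of the 24 had an unadjusted p under 0.05, beside 24.2% of all mRNAs. Under quantile normalization and with equal summed FPKM, 2 genes were called lower after birth, the stress factor NFE2L2 and the shuttle SQSTM1. Their limma adjusted p values were 0.0414 and 0.0304 for NFE2L2 and 0.0394 and 0.0374 for SQSTM1. Of all 14579 mRNAs, 1155 and 1075 were called in these settings, and 57.9% and 28.7% of those were higher after birth. In the list of ubiquitin supply, 4 of 6 genes were measured. All had a positive log2(FC), 1 with equal summed FPKM (27.3% of all mRNAs), and the median as deposited was 0.35. UBA1, the main enzyme that activates ubiquitin, had the highest of them, with 73.0, 46.7 and 47.6 FPKM before and 82.1, 112 and 127 FPKM after birth (log2(FC) 0.94, adjusted p = 0.0822). Of the shuttles and segregases that bring proteins to the proteasome, 8 of 10 were measured. Of these, 7 had a positive log2(FC), 1 with equal summed FPKM (27.3% of all mRNAs), and the median as deposited was 0.34. VCP, the segregase, was at 30.3, 25.1 and 20.9 FPKM against 43.6, 37.2 and 38.4 FPKM (log2(FC) 0.63, adjusted p = 0.101), without overlap. UBA1, VCP, NFE2L2 and SQSTM1, and USP14, PAAF1 and AKIRIN2 below, were named after their values were seen.

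Of 14 symbols listed for proteins that bind the proteasome itself, 9 were measured. Of these, 4 had a positive log2(FC), none with equal summed FPKM (27.3% of all mRNAs), and the median as deposited was -0.076. USP14 and PAAF1, a deubiquitinase of the cap and a cap assembly factor, had all neonatal values below all fetal values, with log2(FC) values of -0.49 and -0.47 (adjusted p = 0.278 and 0.203), where 9.64% of all mRNAs had. AKIRIN2, which helps to import proteasomes into the nucleus, had all neonatal values above all fetal values, with a log2(FC) of 0.42 (adjusted p = 0.263). Of the genes for transcriptional control of the proteasome, 3 of 4 were measured, 1 with a positive log2(FC), none under the 3 scalings. NFE2L1, the factor that raises transcription of proteasome genes when proteasome activity falls, had 39.3, 28.5 and 25.1 FPKM before and 21.9, 30.3 and 31.0 FPKM after birth. Its groups overlapped, and its log2(FC) was -0.14 ± 0.23 (standard error; limma adjusted p = 0.740).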

How the data were processed

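FPKM of mRNAs in 6 lung samples were used as the authors deposited them. Per the labels and methods of the study, the authors mapped strand-specific paired reads to Sscrofa10.2 with TopHat 2.1.0, computed FPKM with Cufflinks 2.2.1 and kept mRNAs with FPKM above 0.5 in at least 1 sample. No read counts were used, so depth per gene is unknown and the spread among 3 animals is the error. The lncRNA table was not used.

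Symbols were matched by gene identifier for 9478 of 14579 mRNAs. Values were analysed as log2(FPKM + 1) with the mean-variance trend of limma (version 3.58.1 under R 4.3.3), neonatal minus fetal. Benjamini-Hochberg adjustment ran over all mRNAs. The fit was tested on simulated data, where it recovered most of the larger changes and missed the smallest. Tables and figures were made in Python 3.11.15 (numpy 2.4.6, pandas 2.3.3, matplotlib 3.10.9). Values in every sample are given for genes past the threshold, the highest and lowest log2(FC) of each class, catalytic subunits and activators. Other genes named are examples. The genes and lists were chosen with earlier results of these data known. Alternatives were other pseudocounts, a stricter filter, 3 scalings, no trend, a replicate block and leaving out each sample.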

Additional observations from a re-analysis of the deposited data

How the results depend on the processing

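The number of mRNAs called was 1001, 401 with the replicate number as a block, and between 196 and 944 with 1 sample left out. The replicate number does not mark a shared animal or litter. Deviations from the group means of same-numbered samples correlated at -0.041, -0.0043 and 0.00047 over all mRNAs, and no sample correlated best with its own number. The block left 1 of the 25 genes called, as without it. The adjusted p of PSMC3IP lay between 0.00732 and 0.0497; the gene passes both the authors' filter and the stricter one through its neonatal values alone, so this is no sign of stability. Its log2(FC) was 2.77 and 4.43 at pseudocounts of 0.5 and 0.1. With 1 sample left out, 1 to 3 of the 25 genes were called. The count of 3 came without Neonatal1, when PSMA1 and PSMC2 passed too. Of all called mRNAs, 78.8% were higher after birth, 66.0% under median-of-ratios scaling, 57.9% under quantile normalization and 28.7% with equal summed FPKM, a setting added after the data were seen. The stricter filter, the other pseudocounts and the fit without a trend moved no count over 1.5 times.

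Median-of-ratios scaling moved the medians of the ATPases, the other base subunits and the lid to -0.0091, 0.27 and 0.35, and turned PSMC5 to -0.0091 and PSMC6 to -0.054. Quantile normalization moved the medians of the 25 genes, the cap and the activators to 0.25, 0.25 and 0.47, and those of the beta subunits, ATPases, other base subunits and lid to -0.13, -0.029, 0.20 and 0.27. It turned PSMB1, PSMB7, PSMC5 and PSMC6 to -0.13, -0.13, -0.029 and -0.15. With equal summed FPKM, the median of the 25 genes turned to -0.035. Those of the core, cap and activators were -0.31, -0.10 and 0.13, and those of the alpha subunits, beta subunits, ATPases, other base subunits and lid were 0.086, -0.32, -0.39, -0.10 and -0.034. This setting turned PSMA3, PSMB1, PSMB7, PSMC3, PSMC5 and PSMC6 to -0.31, -0.33, -0.31, -0.21, -0.39 and -0.45. It also turned PSMD1, PSMD3, PSMD4, PSMD6, PSMD11, PSMD12 and PSMD13 to -0.20, -0.033, -0.0082, -0.035, -0.023, -0.11 and -0.10. Median-of-ratios scaling and equal summed FPKM multiply all genes of a sample by 1 factor, so these shifts follow from their construction. For quantile normalization the cause was not tested.

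With 1 sample left out, the median of the activators lay between 0.47 and 0.76, of the cap between 0.36 and 0.57, of the core between 0.095, without Neonatal3, and 0.54, without Neonatal1, and of the beta subunits between 0.019 and 0.42. Without Neonatal1 the core lay above the cap. PSMC1 turned to 0.073, 0.057, 0.076 and 0.0074 without Fetal1, Fetal3, Neonatal1 and Neonatal2. PSMD1 ranged from -0.025, without Neonatal1, to 0.49, PSMC6 from -0.025, without Neonatal2, to 0.32, and PSMB1 from -0.058, without Neonatal3, to 0.44. The planned ratio of PSMB10 to PSMB7 was not run because PSMB10 matched no identifier. The tables give no counts, so what depth limits could not be measured.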
